A study of Mus musculus with 8 samples.

Results

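The FOXO transcription factors and their quiescence targets were followed in LSK cells, which are sorted from mouse marrow as lacking lineage markers while carrying Sca-1 and c-Kit, and which include the stem cells. Members were found by matching the Ensembl identifiers of the count table, without their version, to mouse symbols. All 10 of the 10 genes sought were found among the 48795 genes of the table: the factors Foxo1, Foxo3 and Foxo4 and the targets Cdkn1b, Bcl6, Klf2, Ccng2, Txnip, Sesn3 and Pik3ip1. All 10 also passed the filter on low counts. The choice rested on the names of the genes. The study compared 4 libraries of control (cre-) mice with 4 libraries of SIRT1 deleted (cre+) mice, and its design text describes the replicates as biological. All mice were C57BL/6 with chronic myeloid leukaemia (CML), 10 weeks after its induction, so the controls carry the disease too. No source used here gives the promoter that drives Cre, the age of the mice or the way the disease was induced. Each sample is RNA sequencing of bulk sorted cells, in which fewer cells of a type and less RNA per cell cannot be told apart.

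FOXO proteins are forkhead transcription factors at the end of the PI3K and AKT pathway. AKT phosphorylates them when growth factors or the BCR-ABL kinase of CML are active, and they then leave the nucleus. In the nucleus they switch on cell cycle inhibitors, antioxidant genes and brakes on growth signalling, and loss of FOXO factors in mice costs haematopoietic stem cells their quiescence. SIRT1, an NAD-dependent deacetylase, removes acetyl groups from FOXO proteins. Transcript counts measure neither the acetylation nor the location of a FOXO protein.

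The targets Ccng2, Txnip, Sesn3 and Pik3ip1 had higher levels in all 4 Sirt1-deleted libraries than in any control, by 1.36-fold to 2.33-fold in mean CPM (reads of a gene scaled to library size with TMM factors). The FOXO factors and the targets Cdkn1b, Bcl6 and Klf2 overlapped between the groups. None of the 10 genes passed the edgeR quasi-likelihood test at an adjusted p under 0.05, where 12 of 14178 genes tested did (0.0846%), 0.0494% of the genes being called higher. At an unadjusted p under 0.05 there were 3 members, Ccng2, Txnip and Pik3ip1, all higher, against 7.55% of all genes tested in that direction, 8.6% in the other and 16.2% in either. Groups that do not overlap, with the Sirt1-deleted libraries higher, were found for 4 of the 10 members and for 942 genes in all (6.64%). With RLE factors the 4 members stayed apart (6.36% of all genes), and with upper-quartile factors 3 did (5.4%). Among the members 7 of 10 log2 fold changes were above 0, as were 53.9% of those of all genes tested, with medians of 0.41 and 0.06. On simulated data DESeq2 made 176 calls, 62 of them false, and edgeR made 82, 6 of them false. Of the simulated 2-fold changes DESeq2 recovered 32% and edgeR 9%. On the real data DESeq2 called 2 members, Ccng2 and Txnip, where it called 8.87% of its genes, 4.08% higher. Limma-voom with quality weights called the same 2 members, where it called 8.03% of all genes, 2.65% higher. On the simulated data, which held 200 changed genes, limma-voom made 70 calls, 1 of them false, and recovered 6% of the 2-fold changes. The simulated libraries differed in size but not in quality, so they did not test the quality weights. On the real data all these tools used the same libraries, so their calls are not independent.

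**Figure D1:**
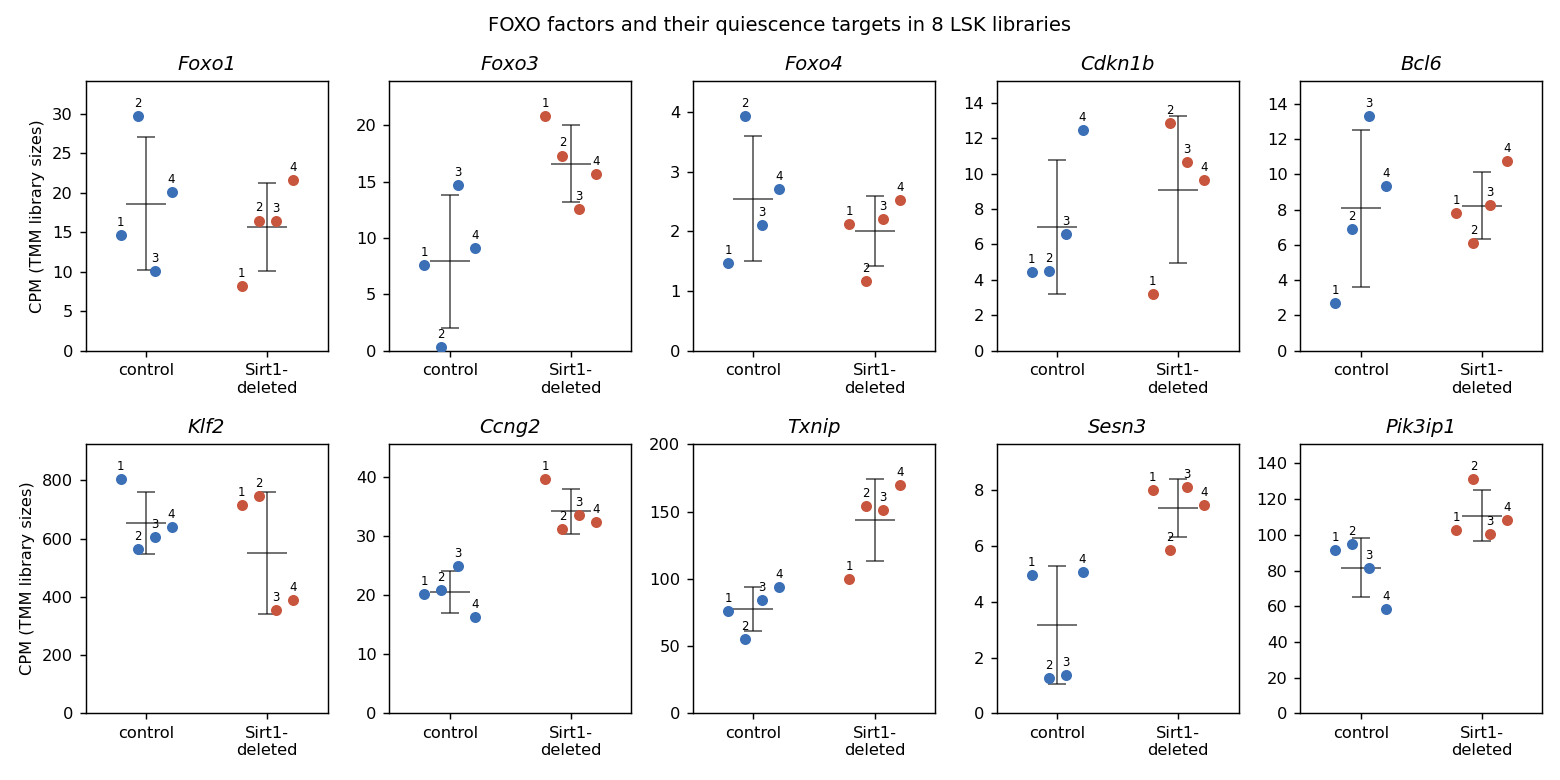
Level of each of the 10 genes in each library, in CPM on TMM-scaled library sizes with a linear axis from 0 and the replicate number beside each point; horizontal bars and whiskers are the mean and SD of the 4 libraries of a group. The groups are apart in the panels of Ccng2, Txnip, Sesn3 and Pik3ip1, and the Foxo3 point of control 2 lies at 0.324 CPM.

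Gene counts totalled 18252562 to 34280925 per library and 15316 to 20342 genes were detected, fewest in control 2 (15316) and Sirt1-deleted 1 (16154). Replicate numbers follow the order of deposit. Alignments that were not unique made up 30.1 to 32.3% of the table total in controls, and 24.1 to 30.9% after Sirt1 deletion. Sirt1 itself had 16.6, 17.9, 8.14 and 9.57 CPM in controls 1 to 4 and 17.0, 10.4, 8.89 and 7.44 CPM in Sirt1-deleted 1 to 4 (log2 fold change -0.26 ± 0.39 SE, edgeR adjusted p = 0.797). These counts cover all exons together and would not show a loss of some of them, so they check no label. Of the genes that encode the sort markers, Kit rose from 37.0 ± 5.05 to 137 ± 20.99 CPM (SD, n = 4 each, edgeR adjusted p = 0.0145), and Ly6a, which encodes Sca-1, was at 232 to 780 and 119 to 224 CPM (adjusted p = 0.228). Library titles begin with a digit that the labels do not explain, 2 or 1 in controls and 4 or 3 in Sirt1-deleted libraries, so it cannot be told apart from genotype. Summed levels of 14 T and NK cell markers, all detected, were 805 to 958 CPM in controls and 556 to 673 CPM in Sirt1-deleted libraries. Cd4, Cd8a, Ncr1 and Gzma were at 0 in some libraries. Nkg7 alone made up most of that sum, at 503 to 614 CPM in controls and 406 to 491 CPM in Sirt1-deleted libraries. For 11 endothelial markers the sums were 79.8 to 129 CPM in controls against 259 to 309 CPM in Sirt1-deleted libraries. Ptprb was at 0 throughout, and Cdh5, Kdr, Cldn5, Tek and Vwf were at 0 in some. Pecam1 had the highest mean of these markers, 57.0 CPM in controls and 98.3 CPM in Sirt1-deleted libraries. Cdh5 and Kdr reached at most 3.41 and 1.9 CPM in a library. Sums in controls and Sirt1-deleted libraries were 713 to 1470 and 1019 to 1370 CPM for 12 stem cell markers, 12950 to 25310 and 8699 to 14890 CPM for 10 granulocyte-monocyte progenitor markers, and 2097 to 5432 and 1210 to 2760 CPM for 10 neutrophil markers. They were 740 to 2040 and 449 to 5027 CPM for 8 plasma cell markers and 570 to 3080 and 221 to 673 CPM for 7 mast cell markers. The stem cell sum does not show the direction of most of its genes. Of its 11 markers tested, 9 had log2 fold changes above 0 and 2 below, with a median of 1.495 beside 0.06 for all genes tested. Ly6a, at 780 CPM in control 1, was 1 of those below 0. The erythroid markers detected, 8 genes, summed to 87.5 to 170 CPM and 190 to 370 CPM, groups that do not overlap, with Klf1, Epor and Alas2 among those at 0 in some libraries. Car2 alone made up most of that sum, at 84.5 to 122 CPM in controls and 153 to 363 CPM in Sirt1-deleted libraries. Of the 4 erythroid markers tested, 2 had log2 fold changes above 0 and 2, both haemoglobin genes, below. The part of these cell types and of the alignment share in the values below was not tested.

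Promoter windows show where a core sequence that FOXO proteins bind, GTAAACA, stands near the members. RefSeq windows on GRCm38.p6, from 250 bases before to 50 bases after a gene's start, matched 9 of the 10 members. The windows of the targets whose groups do not overlap are printed, with that of Cdkn1b, a textbook FOXO target. Capitals mark the FOXO core GTAAACA or its shorter part TAAACA, which lies within it, on either strand (TGTTTAC and TGTTTA), and windows without capitals hold neither.
Txnip, chr3:96557707-96558006, + strand: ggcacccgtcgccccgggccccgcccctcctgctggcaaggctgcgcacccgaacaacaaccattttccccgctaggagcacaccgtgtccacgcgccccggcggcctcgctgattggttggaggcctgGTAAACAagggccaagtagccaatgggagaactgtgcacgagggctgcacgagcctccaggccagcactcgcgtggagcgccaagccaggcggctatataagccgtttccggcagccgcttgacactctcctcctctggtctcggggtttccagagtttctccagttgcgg
Ccng2, chr5:93267323-93267622, + strand: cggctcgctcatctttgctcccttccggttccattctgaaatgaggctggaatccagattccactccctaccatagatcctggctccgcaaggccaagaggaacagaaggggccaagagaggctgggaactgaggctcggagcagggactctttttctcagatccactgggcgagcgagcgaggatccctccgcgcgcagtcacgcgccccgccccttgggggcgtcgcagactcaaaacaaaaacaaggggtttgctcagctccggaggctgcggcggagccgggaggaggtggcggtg
Sesn3, chr9:14276051-14276350, + strand: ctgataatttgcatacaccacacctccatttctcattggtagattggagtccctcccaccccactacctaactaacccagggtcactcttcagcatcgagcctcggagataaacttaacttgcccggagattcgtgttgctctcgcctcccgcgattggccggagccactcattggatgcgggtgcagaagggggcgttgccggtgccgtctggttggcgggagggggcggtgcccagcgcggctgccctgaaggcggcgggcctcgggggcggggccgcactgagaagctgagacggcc
Pik3ip1, chr11:3330481-3330780, + strand: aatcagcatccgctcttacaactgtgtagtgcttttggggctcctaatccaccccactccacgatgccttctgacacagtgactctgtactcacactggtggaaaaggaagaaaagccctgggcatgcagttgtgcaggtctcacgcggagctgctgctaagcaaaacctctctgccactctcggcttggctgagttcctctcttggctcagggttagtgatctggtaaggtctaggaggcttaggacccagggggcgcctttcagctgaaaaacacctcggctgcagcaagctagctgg
Cdkn1b, chr6:134920151-134920450, + strand: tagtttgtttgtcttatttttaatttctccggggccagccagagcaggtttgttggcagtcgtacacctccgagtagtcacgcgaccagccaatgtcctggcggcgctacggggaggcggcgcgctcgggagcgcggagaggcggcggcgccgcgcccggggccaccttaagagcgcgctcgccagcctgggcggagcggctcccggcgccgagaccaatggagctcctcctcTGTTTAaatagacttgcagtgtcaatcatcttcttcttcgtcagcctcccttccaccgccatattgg

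The Txnip window alone among the 10 windows of members held the core GTAAACA, 121 bases before the start and on the coding strand. Of 32817 promoter windows in the table, 3.65% hold that core. The shorter TAAACA, added to the search after the windows were seen, was in 13.4% of all windows. Besides the match inside the Txnip core, it occurred among the members in Cdkn1b, as TGTTTA on the opposite strand, 17 bases before the start. These letters are a description of the windows and locate no binding. No other binding sequence was searched, so a window without capitals is not shown to lack a FOXO site. The RefSeq starts of Ccng2, Sesn3 and Pik3ip1 lie inside the GENCODE genes, so other starts of these genes were not searched.

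Among the factors, Foxo1 overlapped between the groups. Foxo1 (ENSMUSG00000044167.6, chromosome 3, 52268336 to 52353221, GRCm38) encodes the factor best known from lymphocytes and metabolic tissues. It had 14.7, 29.7, 10.1 and 20.04 CPM in controls 1 to 4 and 8.19, 16.5, 16.5 and 21.6 CPM in Sirt1-deleted 1 to 4. Control 2 was the highest of the 8 libraries and Sirt1-deleted 1 the lowest, and these are the 2 libraries with the fewest detected genes. EdgeR gave a log2 fold change of -0.25 ± 0.40 (SE, adjusted p = 0.810). Its sign rested on control 2, without which it was 0.03, and it was 0.24 without both libraries. The antisense gene Gm20402 within the locus had 0 counts in all libraries.

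Foxo3 had a higher mean in Sirt1-deleted libraries, but its controls spread widely. Foxo3 (ENSMUSG00000048756.11, chromosome 10, 42181841 to 42276755) encodes the FOXO factor most tied to stem cell quiescence. Controls 1 to 4 had 7.57, 0.324, 14.7 and 9.09 CPM, and Sirt1-deleted 1 to 4 had 20.8, 17.3, 12.6 and 15.7 CPM. Of the Sirt1-deleted libraries, 3 of 4 were above every control, and Sirt1-deleted 3 lay below control 3. Control 2 rested on 9 reads, for which the exact Poisson 95% interval is 0.148 to 0.615 CPM and covers counting error only. Foxo3 differed by 1.07 ± 0.80 on the log2 scale (SE, edgeR adjusted p = 0.574), with a mean of 7.93 ± 5.93 CPM in controls and 16.6 ± 3.43 CPM in Sirt1-deleted libraries (SD, n = 4 each). Without control 2 the difference was 0.63, and without control 3 it was 1.53.

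Foxo4 was the lowest factor in CPM and overlapped between the groups. Foxo4 (ENSMUSG00000042903.8, chromosome X, 101254528 to 101260873) encodes a smaller member of the family, also under AKT control. It had 1.46, 3.93, 2.10 and 2.70 CPM in controls 1 to 4 and 2.13, 1.17, 2.20 and 2.52 CPM in Sirt1-deleted 1 to 4. Control 2 was the highest library and Sirt1-deleted 2 the lowest. The log2 difference of -0.35 ± 0.59 (SE, edgeR adjusted p = 0.820) was smaller than the spread within the groups. Foxo6, the remaining FOXO gene, had 0 counts in 6 libraries and 3 and 2 counts in Sirt1-deleted 3 and 4, and was too low to test.

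The sum of the FOXO transcripts per length lay between 3.11 and 5.28 in the 8 libraries, while the share of Foxo3 in it ran from 0.932 to 63.9%. Summed over the 3 factors, the per-length level (CPM per kilobase of exon) was 3.11, 4.595, 3.72 and 4.29 for controls 1 to 4, and for Sirt1-deleted 1 to 4 it was 4.31, 4.53, 4.196 and 5.28. Foxo3 made up 32.1, 0.932, 52.3 and 28.0% of that sum in controls 1 to 4. In Sirt1-deleted 1 to 4 its share was 63.9, 50.6, 39.6 and 39.1%. The shares overlapped because control 3 lay among the Sirt1-deleted libraries. Foxo1 held 31.4 to 74.5% of the sum among controls, against 21.9 to 47.2% after deletion, and Foxo4 13.5 to 24.5% against 7.39 to 15.1%.

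**Figure D2:**
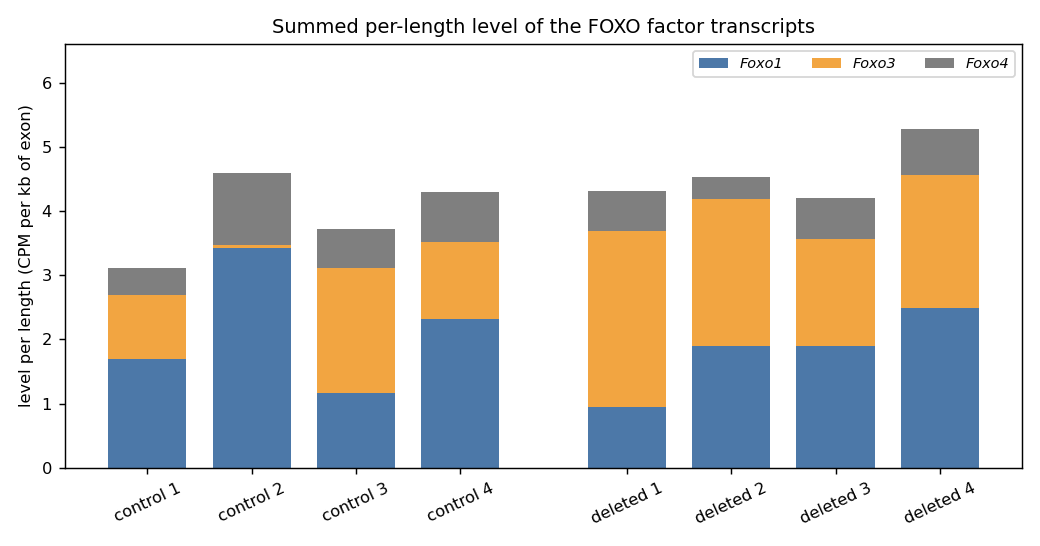
Stacked per-length level of Foxo1, Foxo3 and Foxo4 in each library, in CPM per kilobase of exon on TMM-scaled library sizes, with a linear axis from 0. The sums lie between 3.11 and 5.28, and the Foxo3 segment of control 2 is 0.932% of its bar.

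The genes whose pattern across the 8 libraries was most like a factor's were sought among the 9632 genes whose mean reached 5 CPM, by the root mean square difference of centred log2 CPM. For Foxo3 they were Cep135, a centriole protein gene, at 0.27 and Mex3c, an RNA-binding ubiquitin ligase gene, at 0.31, where Foxo3 itself varied by 1.73 about its mean. Control 2 was the lowest library for both, at 0.108 CPM for Cep135 and 0.324 CPM for Mex3c. For Foxo1 the nearest was Mtif3, a mitochondrial translation initiation factor gene, at 0.20. Its highest library was control 2 and its lowest Sirt1-deleted 1, as for Foxo1. For Foxo4 they were Mvd, of the mevalonate pathway, at 0.16 and the ubiquitin ligase gene Rnf6 at 0.23.

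Ccng2 and Txnip had the smallest p among the 10 genes. Ccng2 (ENSMUSG00000029385.14, chromosome 5, 93267257 to 93276231) encodes cyclin G2, an unusual cyclin that is high in resting cells and slows the cycle. It had 20.2, 20.9, 24.9 and 16.3 CPM in controls 1 to 4 and 39.7, 31.3, 33.6 and 32.5 CPM in Sirt1-deleted 1 to 4. All 4 Sirt1-deleted libraries were above all 4 controls, with the lowest at 31.3 CPM and the highest control at 24.9 CPM. The difference was 0.74 ± 0.19 on the log2 scale (SE, edgeR adjusted p = 0.133), from 20.6 ± 3.52 to 34.3 ± 3.77 CPM (SD, n = 4 each). DESeq2 gave an adjusted p of 0.00315 and limma-voom with quality weights 0.0345, and over all alternatives the adjusted p ran from 0.00315 to 0.363. With the length and GC trend removed the difference was 0.49.

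Txnip (ENSMUSG00000038393.14, chromosome 3, 96557957 to 96561883), the gene whose promoter window holds the FOXO core, encodes an inhibitor of thioredoxin that also limits glucose uptake. It had 76.3, 55.6, 84.2 and 94.1 CPM in controls 1 to 4 and 99.6, 154, 151 and 170.0 CPM in Sirt1-deleted 1 to 4. The groups did not overlap, but Sirt1-deleted 1 lay much nearer to control 4 than to the other Sirt1-deleted libraries. Txnip differed by 0.89 ± 0.21 on the log2 scale (SE, edgeR adjusted p = 0.118), from 77.5 ± 16.3 to 144 ± 30.6 CPM (SD, n = 4 each). Without Sirt1-deleted 1 it was 0.99 and passed the edgeR test (adjusted p = 0.0370), as it did without both control 2 and Sirt1-deleted 1 (0.86, adjusted p = 0.0439). In those fits 3.05% and 2.13% of all genes tested were called, 0.535% and 0.521% higher. DESeq2 gave an adjusted p of 0.00548 and limma-voom 0.0146, and the adjusted p ran from 0.00548 to 0.353 over all alternatives. The antisense gene Gm15441, which overlaps Txnip, had at most 26 counts in a library, against 1521 or more for Txnip.

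Sesn3 and Pik3ip1, both brakes on growth signalling, were also higher in every Sirt1-deleted library. Sesn3 (ENSMUSG00000032009.8, chromosome 9, 14275067 to 14333101) encodes a sestrin, a stress protein that restrains mTORC1. It had 4.95, 1.26, 1.39 and 5.07 CPM in controls 1 to 4 and 7.997, 5.86, 8.11 and 7.47 CPM in Sirt1-deleted 1 to 4. Controls 2 and 3, with 35 and 25 counts, were well below controls 1 and 4, while the Sirt1-deleted libraries kept close together. On the log2 scale the difference was 1.22 ± 0.58 (SE, edgeR adjusted p = 0.348), from 3.16 ± 2.13 to 7.36 ± 1.04 CPM (SD, n = 4 each), and it ran from 0.87 to 1.62 over the alternatives.

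Pik3ip1 (ENSMUSG00000034614.14, chromosome 11, 3330401 to 3342971) encodes a transmembrane inhibitor of PI3K, upstream of AKT and the FOXO factors. Controls 1 to 4 had 91.4, 94.99, 81.4 and 58.5 CPM, and Sirt1-deleted 1 to 4 had 103, 131, 100.2 and 108 CPM. The gap between control 2 and Sirt1-deleted 3 was small, and with upper-quartile scaling the groups of Pik3ip1 overlapped. EdgeR gave a log2 fold change of 0.44 ± 0.18 (SE, adjusted p = 0.272). It was 0.21 with the length and GC trend removed, and 0.21 in the libraries whose titles start with 2 or 4. Gm12592, a transcript on the other strand, had 0 counts in all controls and 156, 2, 5 and 14 counts in Sirt1-deleted 1 to 4. For each of Ccng2, Txnip, Sesn3 and Pik3ip1 the sign was kept in the 17 alternatives tried.

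Cdkn1b, Bcl6 and Klf2, which encode nuclear regulators, overlapped between the groups. Cdkn1b (ENSMUSG00000003031.14, chromosome 6, 134920401 to 134925513) encodes a cyclin-dependent kinase inhibitor that holds cells in G1. It had 4.43, 4.50, 6.59 and 12.5 CPM in controls 1 to 4 and 3.21, 12.8, 10.7 and 9.66 CPM in Sirt1-deleted 1 to 4. Sirt1-deleted 1 was the lowest of all 8 libraries, and the other Sirt1-deleted libraries stood among or above the controls. Cdkn1b differed by 0.38 ± 0.53 on the log2 scale (SE, edgeR adjusted p = 0.779), and it was -0.28 with the number of detected genes as a covariate.

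Bcl6 (ENSMUSG00000022508.5, chromosome 16, 23965052 to 23988852) encodes a transcriptional repressor that FOXO proteins switch on in BCR-ABL-positive cells whose kinase is inhibited. It had 2.71, 6.92, 13.3 and 9.33 CPM in controls 1 to 4 and 7.80, 6.12, 8.23 and 10.7 CPM in Sirt1-deleted 1 to 4. All Sirt1-deleted libraries lay within the range of the controls. The difference of 0.03 ± 0.48 on the log2 scale (SE, edgeR adjusted p = 0.985) was far below that spread.

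Klf2 (ENSMUSG00000055148.7, chromosome 8, 72319033 to 72321656) encodes a Krüppel-like factor that keeps lymphocytes at rest and is also abundant in endothelium. Controls 1 to 4 had 805, 563, 606 and 639 CPM, and Sirt1-deleted 1 to 4 had 716, 747, 355 and 388 CPM. The Sirt1-deleted group was split, with replicates 3 and 4 below every control and replicates 1 and 2 inside the range of the controls. Replicates 3 and 4 also had the lowest shares of alignments that were not unique, 24.3% and 24.1% against 30.9% and 28.8% in replicates 1 and 2, and the part of this in the split was not tested. Klf2 differed by -0.24 ± 0.26 on the log2 scale (SE, edgeR adjusted p = 0.709), and over the alternatives it ran from -0.65 to -0.11. Summed endothelial markers were higher and summed T and NK cell markers lower in Sirt1-deleted libraries, as given above. These sums lean on few genes, such as Pecam1 and Nkg7, and count no cells. Their part in Klf2 was not tested.

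**Figure D3:**
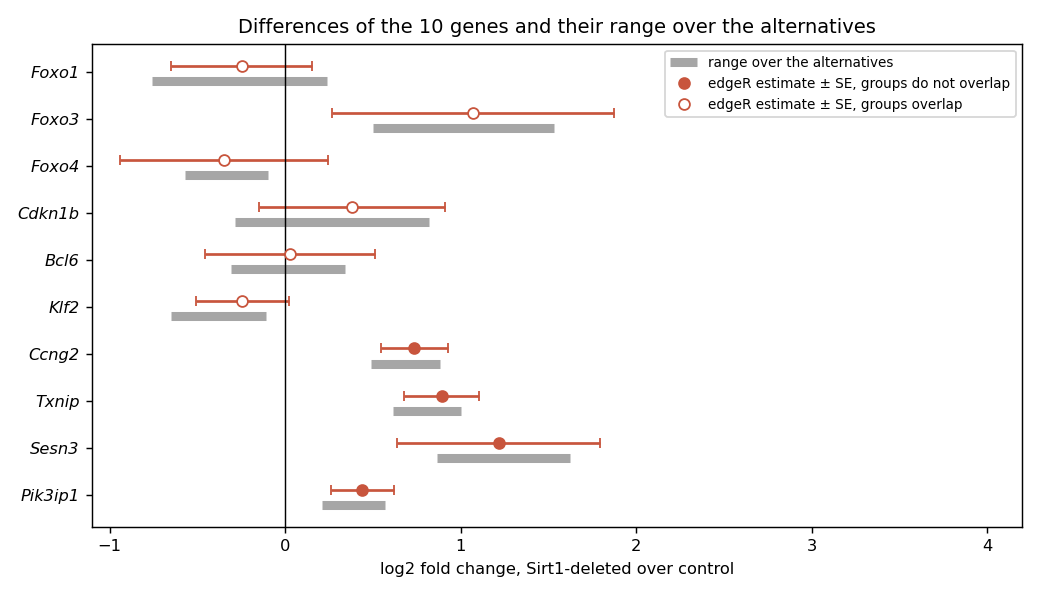
Log2 fold change of each of the 10 genes, Sirt1-deleted over control, with points and whiskers for the edgeR estimate and its SE and grey bars for the range over 17 alternatives. Filled points mark groups that do not overlap, and the grey bars of Foxo1, Cdkn1b and Bcl6 cross 0.

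Per length, Klf2 was by far the most abundant of the 10 transcripts. Its level was 354 ± 57.4 CPM per kilobase of exon in controls and 299 ± 113 in Sirt1-deleted libraries (SD, n = 4 each). Txnip followed with 24.8 ± 5.23 and 46.1 ± 9.80, then Pik3ip1 with 19.1 ± 3.84 and 25.9 ± 3.32, and Ccng2 with 3.77 ± 0.644 and 6.28 ± 0.692. The remaining per-length means, for Foxo1, Cdkn1b, Foxo3, Bcl6, Foxo4 and Sesn3, lay between 0.207 and 2.19. Across the 8 libraries the ranges of per-length levels were apart between Klf2 and Txnip and between Pik3ip1 and Ccng2. All other neighbours in the order overlapped. With the longest transcript as the length in place of all exons, Pik3ip1 stood above Txnip in controls (31.7 against 27.4 CPM per kilobase).

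**Figure D4:**
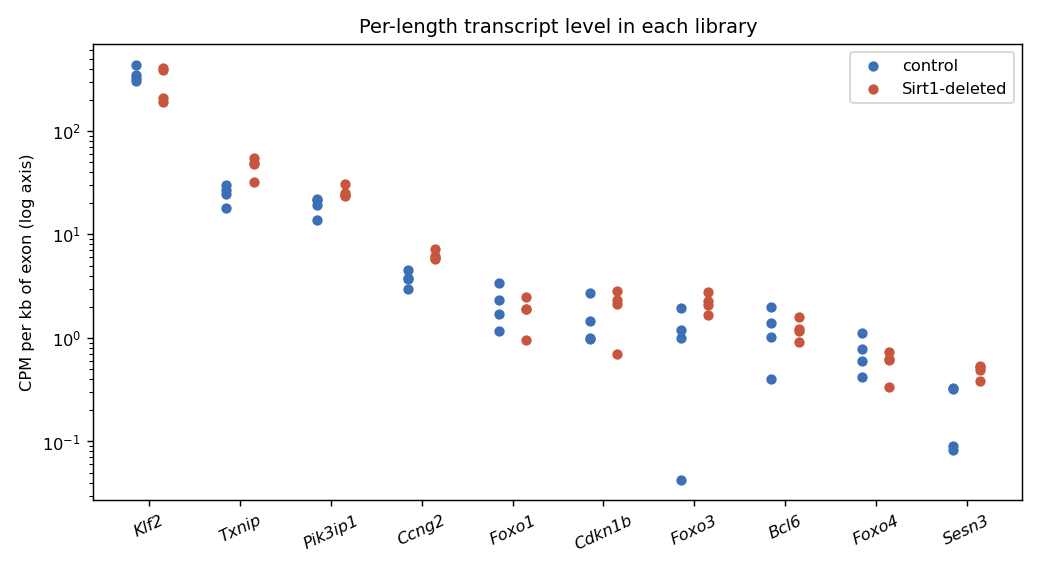
Per-length level of the 10 transcripts in each library, in CPM per kilobase of exon on a log axis, ordered by the mean of 8 libraries, with controls in blue and Sirt1-deleted libraries in red. Klf2 lies above 192 in every library, and the isolated low point of Foxo3 is control 2 at 0.0428.

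Other genes known as FOXO targets lay on both sides of 0. Of 48 genes listed, which include the factor Foxo6, 43 were tested. None passed the edgeR test, and 4 were higher and 8 lower at an unadjusted p under 0.05, where 7.55% and 8.6% of all genes tested were. Their median log2 fold change was 0.01, beside 0.06 for all genes tested. Groups did not overlap for 4 that were higher and 4 that were lower, where 6.64% and 6.44% of all genes tested did so. Lower in every Sirt1-deleted library were Cdkn2d, another cyclin-dependent kinase inhibitor gene, the p53 and FOXO target Pmaip1, the mitochondrial superoxide dismutase gene Sod2 and the signalling inhibitor gene Spry2. Cdkn2d was at 251, 301, 262 and 222 CPM in controls 1 to 4 and at 165, 115, 141 and 129 CPM in Sirt1-deleted 1 to 4. Its log2 difference of -0.92 ± 0.14 (SE, edgeR adjusted p = 0.0672) had the smallest p of the list, and it passed without Sirt1-deleted 1 and with DESeq2 and limma-voom. Sod2 was at 184 ± 25.4 and 129 ± 4.81 CPM (SD, n = 4 each), a log2 difference of -0.52 (edgeR adjusted p = 0.107), and Pmaip1 at 43.8 ± 9.67 and 22.6 ± 5.27 CPM (-0.95, adjusted p = 0.130). Zfp36l1, an mRNA decay factor gene, differed by -1.06 on the log2 scale (adjusted p = 0.151) and overlapped.

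Higher in every Sirt1-deleted library were Rbl2, a retinoblastoma-related gene, Tnfsf10, the gene of the death ligand TRAIL, the ubiquitin ligase gene Fbxo32 and the antiproliferative gene Tob1, with log2 fold changes of 1.06, 1.44, 0.97 and 0.70. Those 4 and Spry2 were named after their values were seen, as were the sestrins Sesn1 and Sesn2. Sesn1 was at 11.6, 37.4, 17.4 and 28.4 CPM in controls 1 to 4 and at 34.4, 62.6, 56.2 and 60.3 CPM in Sirt1-deleted 1 to 4. Only Sirt1-deleted 1 lay within the range of the controls, and the log2 fold change was 1.17 ± 0.37 (SE, edgeR adjusted p = 0.182). For Sesn2 the log2 difference was -0.50 (adjusted p = 0.641).

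Among regulators of FOXO proteins, Phlpp1 and Akt2 had the smallest p. Of 41 listed, from PI3K and AKT to deacetylases, 14-3-3 proteins and ubiquitin ligases, 40 were tested and 0 passed the edgeR test, with 2 higher and 1 lower at an unadjusted p under 0.05, where 7.55% and 8.6% of all genes tested were. The median log2 fold change was 0.13. Phlpp1, the gene of a phosphatase that turns AKT off, stood highest. It was at 0.215, 0.468, 0.277 and 2.179 CPM in controls 1 to 4 and at 6.61, 7.18, 4.57 and 6.37 CPM in Sirt1-deleted 1 to 4. Every Sirt1-deleted library was above every control, and controls 1 to 3 rested on 5, 13 and 5 counts. On the log2 scale the difference was 2.97 ± 0.84 (SE, edgeR adjusted p = 0.151), and 4.25 without control 4. The kinase gene Akt2 was at 65.2 ± 14.6 and 104 ± 21.3 CPM (SD, n = 4 each), a log2 difference of 0.67 (edgeR adjusted p = 0.181), with groups that overlapped. DESeq2 and limma-voom each called Phlpp1 and Akt2 higher and no other regulator. Over all genes DESeq2 called 4.08% higher and limma-voom 2.65%, with 8.87% and 8.03% in either direction. Pik3ca, the gene of a PI3K catalytic subunit, differed by 0.63 on the log2 scale (adjusted p = 0.310). Groups were also apart for the mTOR brake gene Tsc2, higher at 0.65, and for the 14-3-3 genes Ywhae and Ywhaz, lower at -0.26 and -0.19, of which Tsc2 and Ywhaz were named after their values were seen. In all, 2 of the 40 regulators were apart and higher and 2 apart and lower, where 6.64% and 6.44% of all genes tested were.

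Among 4 genes that FOXO proteins are known to repress, 0 passed the edgeR test, and 0 had an unadjusted p under 0.05. Log2 fold changes were -0.82 for Id1, -0.49 for Ccnd1, -0.21 for Ccnd2 and 0.20 for Myc. Limma-voom called Id1 lower (adjusted p = 0.0482) and DESeq2 called 0, where they called 8.03% and 8.87% of all genes in either direction.

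Genes of stem cell quiescence had mostly positive log2 fold changes, 13 of 20. The list of 22 genes, which includes Txnip, had those 20 tested, of which 0 passed the edgeR test, 8 were higher and 1 lower at an unadjusted p under 0.05, beside 7.55% and 8.6% of all genes tested. Its median log2 fold change was 0.75, and groups did not overlap for 9 higher genes and 1 lower, the polycomb gene Bmi1 (-0.69), which was named after its value was seen, beside 6.64% and 6.44% of all genes tested. The transcription factor genes Mecom (4.56 ± 1.68 and 16.2 ± 3.59 CPM), Meis1 (24.4 ± 10.3 and 68.7 ± 14.3 CPM) and Hlf (13.4 ± 4.59 and 30.3 ± 4.72 CPM) had adjusted p from 0.0950 to 0.115 (SD, n = 4 each, edgeR). DESeq2 called 8 of this list higher (4.08% of all its genes) and limma-voom 5 (2.65%), Txnip among them both times. Kit and the endothelial markers were higher in the same libraries, and Tek is in both the endothelial and the quiescence list. Their part in this list was not tested.

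Genes of proliferation had log2 fold changes above 0 in 15 cases and below 0 in 9. All 24 were tested, 0 passed the edgeR test, and 4 were higher and 2 lower at an unadjusted p under 0.05, beside 7.55% and 8.6% of all genes tested, with a median log2 fold change of 0.12. Top2a, the topoisomerase of dividing cells, was at 143 ± 18.8 and 191 ± 15.6 CPM (log2 fold change 0.42, edgeR adjusted p = 0.162), and the helicase subunit gene Mcm4 at 135 ± 8.79 and 175 ± 29.97 CPM (0.37, adjusted p = 0.241). Birc5, which encodes survivin, was at 301 ± 19.8 and 203 ± 20.6 CPM (-0.57, adjusted p = 0.0892). Rrm2, a ribonucleotide reductase subunit gene, was at 353 ± 41.5 and 229 ± 31.8 CPM (-0.63, adjusted p = 0.101; SD, n = 4 each). Groups were apart for Top2a and the mitotic checkpoint gene Bub1, higher, and for Birc5, Rrm2 and the cyclin gene Ccne2, lower. Bub1 and Ccne2 were named after their values were seen, and 6.64% and 6.44% of all genes tested were apart in these directions.

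**Figure D5:**
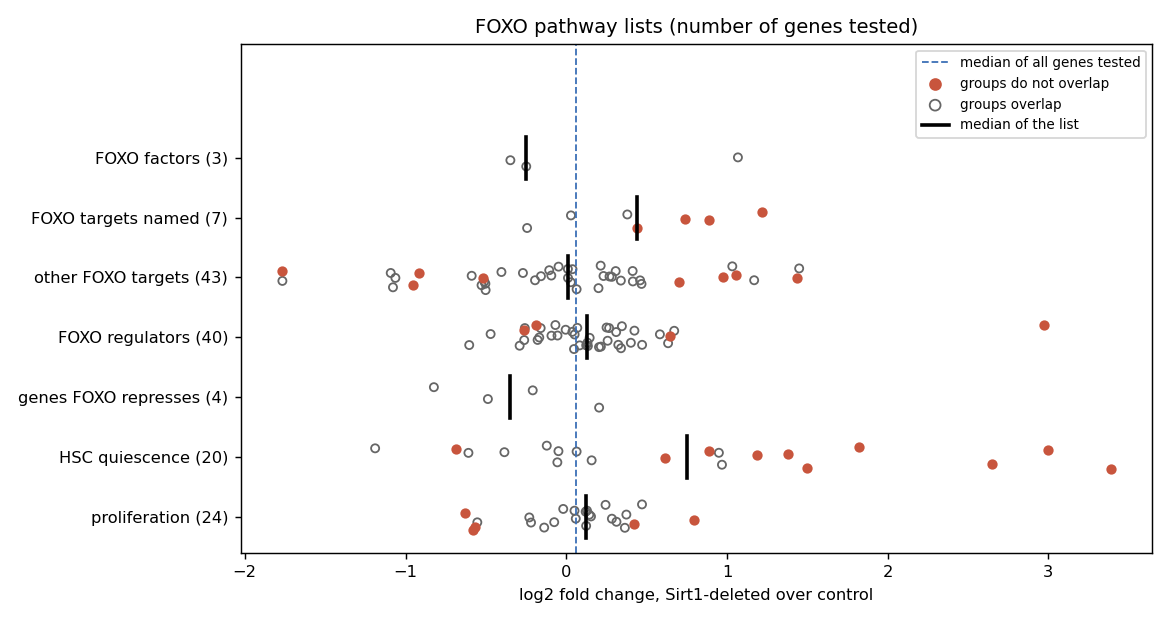
Log2 fold change, Sirt1-deleted over control, of each tested gene in the FOXO lists, with black bars for list medians, a dashed line for the median of all genes tested and filled points for genes whose groups do not overlap. The points of the other FOXO targets spread to both sides of a median of 0.01, whereas 9 filled points of the quiescence list lie above 0 and 1 below.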

How the data were processed

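RNA from sorted LSK cells was sequenced in 8 libraries, 4 per genotype, made per the labels' protocols with SMARTer Ultra Low Input v4 and Nextera XT, chemistry that marks no strand and carries no molecular identifiers. The deposited table holds raw read counts, whole numbers with no scaling. Per the submitters' processing notes, tools were STAR 2.5.3, HTSeq 0.9.1, Trim Galore 0.5.0, bcl2fastq 2.18.0.12 and DESeq2 1.20.0, on GRCm38. No source used here gives the annotation release, counting mode or strand setting, so overlapping genes on the other strand cannot be told apart. The 5 summary rows, 33.2 to 40.6% of a library's records, were left out. Columns were matched to samples by title. For control 4 the final letter of the column name is not that of the title, but the rest matches no other title. Of 48795 identifiers, 48349 (99.1%) had a symbol. Loci and exon lengths are those of GENCODE vM21, on the same build.

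Genes were tested over the whole table with edgeR 4.0.16 (limma 3.58.1, R 4.3.3): TMM, filterByExpr, robust quasi-likelihood F test, two-sided, Benjamini-Hochberg over 14178 genes, called under 0.05. SE was taken as the size of the log2 fold change divided by the root of F. Log2 CPM used a prior count of 2. Alternatives used DESeq2 1.42.0, limma-voom, other scalings, filters, covariates and library subsets. The procedure was tested on simulated data. Members and lists were chosen with earlier results of these data known, and the lists are no independent support. Named are all members, Sirt1, the 4 genes of smallest p per list, the 2 genes most like each factor (1 for Foxo1), and genes said to be named after their values were seen. Some genes and 1 marker list are not reported here.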

Additional observations from a re-analysis of the deposited data

Results flagged for a closer look

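Within a group of 4 libraries, 1 library stood far from the other 3 for 4 of the genes named, and none of these is one of the 10 members. Chance sets apart about 1 in 20 groups, and 94 groups were examined. Control 4 was the library apart for Phlpp1, at 2.179 CPM against 0.215 to 0.468 in the other controls, and for Pik3ca, at 16.9 CPM. Control 1 stood apart for Ywhaz at 295 CPM. Sirt1-deleted 4 stood apart for Bmi1 at 12.4 CPM. Without control 4 the log2 fold change of Phlpp1 was 4.25.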

How the results depend on the processing

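The sign of Ccng2, Txnip, Sesn3 and Pik3ip1, of Foxo3, Foxo4 and Klf2 was kept in all 17 alternatives. Over the whole table, the calls (12, 7 higher and 5 lower) were 1317 with DESeq2 (606 and 711), 1139 with limma-voom (376 and 763), 311 without control 2 and Sirt1-deleted 1 (76 and 235), 1 in titles 2 and 4 only (1 and 0), 0 with detected genes as covariate or the length and GC trend removed, and 0 to 451 leaving out 1 library (0 to 79 higher, 0 to 372 lower). Upper-quartile scaling gave 18 (7 and 11), and moved the median of all genes from 0.06 to -0.01. Members called were 2 with DESeq2 or limma-voom, 1 without the 2 libraries, and 0 to 1 leaving out 1 library, the 1 being Txnip without Sirt1-deleted 1.

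Ccng2 was 0.73 with DESeq2 and 0.74 with limma-voom, and 0.61 to 0.81 leaving out 1 library. Txnip was 0.88, 0.93 and 0.86 with DESeq2, limma-voom and without the 2 libraries, and 0.72 to 1.00 leaving out 1. Foxo1 turned to 0.16 with limma-voom and 0.24 without the 2 libraries, and ran from -0.50 to 0.029 leaving out 1, the positive value being without control 2. Cdkn1b turned to -0.28 with the covariate. Bcl6 turned to -0.038 with upper-quartile scaling, -0.039 with the covariate, -0.049 without the 2 libraries and -0.31 with the trend removed, and ran from -0.29 to 0.34 leaving out 1. Members higher with groups that do not overlap were 3 with upper-quartile scaling and 4 to 5 leaving out 1 library (7.70 to 13.5% of all genes tested), 5 (with Foxo3) without control 3 or Sirt1-deleted 3. They were 4 without the 2 libraries (17.0% of all genes tested) and in titles 2 and 4 (12.7%), counts added after seeing the data.

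With DESeq2, limma-voom and without the 2 libraries, calls were 2, 2 and 0 among 40 regulators and 8, 6 and 2 among 43 other targets. In the same order they were 0, 1 and 0 among 4 repressed genes, 8, 5 and 2 among 21, 20 and 21 quiescence genes, and 3, 2 and 1 among 24 proliferation genes. Over all genes tested 8.87%, 8.03% and 2.13% were called. Of the other targets called, 3, 1 and 0 were higher and 5, 5 and 2 lower. Leaving out 1 library, calls reached 0 to 1 for other targets and for quiescence, and 0 to 2 for proliferation, where at most 3.05% of all genes were called. Genes that turned sign were Mtif3 (0.22 with limma-voom, 0.28 without the 2 libraries, -0.45 to 0.10 leaving out 1), Mvd (0.00867 with limma-voom, 0.11 in titles 2 and 4, -0.38 to 0.015 leaving out 1), Rnf6 (0.018 and 0.016), Sesn2 (0.064 and 0.046) and Sirt1 (0.046 with the covariate). With the longest transcript as length, per-length levels in controls and Sirt1-deleted libraries were 2.05 and 2.09 for Bcl6, 4.54 and 7.55 for Ccng2, 0.347 and 0.806 for Sesn3 and 31.7 and 43.0 for Pik3ip1. The cause of these changes was not tested. Foxo3 in control 2 rested on 9 reads and Sesn3 in controls 2 and 3 on 35 and 25, although control 2 had the most gene counts of the controls. Titles also hold a letter (B, L, N or R) that occurs once in each group and that the labels do not explain. With this letter as a replicate block, added after seeing the data, edgeR called 0 genes (0 higher, 0 lower) and 0 members, and the 10 members kept their sign. Between libraries with the same letter, deviations from the group means correlated across genes at -0.0372, -0.0865, 0.255 and 0.128 for B, L, N and R. With N and with R, each library was the other's closest match in the other group, and with B and L neither was. The letters were not taken to pair the libraries in the main fit, and these values do not settle whether they do.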
